A study of Mus musculus with 18 samples.

Results

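The genes described here are 32 genes of the unfolded protein response and of protein folding in the endoplasmic reticulum (ER), measured by RNA sequencing in mouse retinal pigment epithelium (RPE). They were chosen by name, as rows of the expression tables whose gene name equals a name on the list, and all 32 were found in both tables, among 55333 named rows of the first and 55421 of the second. By role they are 8 chaperones and lectins of the ER lumen (Hspa5, Hsp90b1, Hyou1, Calr, Canx, Sdf2l1, Manf and Creld2), 3 J-domain co-chaperones (Dnajb9, Dnajb11 and Dnajc3), 3 protein disulfide isomerases (Pdia3, Pdia4 and Pdia6), 3 stress sensors (Ern1, Eif2ak3 and Atf6), 3 transcription factors (Xbp1, Atf4 and Ddit3), 8 genes of ER-associated degradation (Herpud1, Edem1, Edem2, Sel1l, Syvn1, Derl1, Derl2 and Derl3) and 4 targets of the integrated stress response (Trib3, Chac1, Asns and Ppp1r15a). All 32 passed the filter on low values in both tables, which asked for 10 normalized counts or more in 3 or more libraries and kept 19711 and 18653 genes.

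When unfolded proteins accumulate in the ER, 3 sensors in its membrane respond: IRE1 (Ern1) splices the mRNA of the transcription factor Xbp1, PERK (Eif2ak3) phosphorylates the initiation factor eIF2 alpha and so favours translation of Atf4, and ATF6 is cleaved in the Golgi to release a transcription factor. Their targets include chaperones, disulfide isomerases and the machinery that returns misfolded proteins to the cytosol for degradation, while Atf4 and Ddit3 (CHOP) also drive genes of amino acid synthesis and glutathione breakdown. The RPE is a pigmented secretory epithelium that takes up shed photoreceptor outer segments each day. Gene-level counts do not separate spliced from unspliced Xbp1 mRNA and say nothing of the cleavage or phosphorylation of the sensors.

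RPE was taken from mice at postnatal day 25, 1 h after the lights came on, without treatment. The first table holds 6 libraries of C57BL/6, 3 of Tyro3-/-V1 and 3 of Mertk-/-V2Tyro3-/-V2, and the second, which was normalized separately, holds 3 of WT129 and 3 of Itgb5-/-. Mertk and Tyro3 encode related receptor tyrosine kinases and Itgb5 an integrin beta chain, and the first of these and the integrin are known for their part in the uptake of outer segments by RPE. The labels call the libraries biological replicates and give neither the sex nor the number of mice behind each one, nor do they describe the alleles V1 and V2, so Tyro3-/-V1 and Mertk-/-V2Tyro3-/-V2 differ in the version of the Tyro3 allele as well as in Mertk. In the first table the names of C57BL/6 replicates 1 to 3 and of all mutant libraries carry the number 23, and those of C57BL/6 replicates 4 to 6 do not. The labels do not explain this mark. Log2 fold changes against C57BL/6 below rest on the 3 C57BL/6 libraries with the mark, and the 3 without it were compared with them as a comparison of its own.

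The libraries held 14135502 to 30401422 reads. Tyro3 was at 3398 ± 514 normalized counts in C57BL/6 (SD, n = 6), 1292 ± 122 in Tyro3-/-V1 (n = 3) and 1705 ± 244 in the libraries labelled Mertk-/-V2Tyro3-/-V2 (n = 3). Mertk was not lower in the latter (3409 ± 631 against 3202 ± 454), so the gene-level count does not check that label, and the group is called by its label throughout. Itgb5 was at 1199 ± 57.8 in Itgb5-/- and 3622 ± 589 in WT129 (n = 3 each). None of the 16 RPE markers was at 0 in all libraries of either table. Their sum made up 2.16% to 4.33% of the reads of a library. The 12 rod markers summed to 0.132% to 2.05%, and the 12 markers of ocular surface epithelium to 0.296% to 1.63%. In these lists too none was at 0 in all libraries of a table, so transcripts typical of other eye cells were present. In bulk tissue, fewer cells of a type and less RNA per cell cannot be told apart.

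Promoter sequence shows which members carry the DNA elements by which the response is known to act. The RefSeq promoters of build GRCm38.p6, each 300 bases long, from 250 bases before to 50 after the annotated start, were found for 28 members; Hyou1, Manf, Atf6 and Derl1 had none in the table. Both strands were searched for the ER stress response element, with letters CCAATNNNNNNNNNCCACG, for ERSE-II, in which the letters ATTGG and CCACG stand 1 base apart, for the UPR element, with letters TGACGTGG, and for the CARE element read by Atf4, with letters TGATGNAA. The first 3 share the letters CCACG or their complement CGTGG, and the last shares none of these. The 8 windows below belong to members on which the results turn, or to Hsp90b1. The latter is shown as a chaperone with 2 matches whose mutant log2 fold changes against the marked C57BL/6 libraries were not below 0. Capitals mark the match, which reads as given or as its reverse complement, and each run is written 5′ to 3′ on the strand of the gene. The windows are Hspa5 at chr2:34772000-34772068 on the plus strand, Hsp90b1 at chr10:86705508-86705681 on the minus strand, Creld2 at chr15:88819495-88819563 on the plus strand, Pdia6 at chr12:17266466-17266534 on the plus strand, Syvn1 at chr19:6046507-6046575 on the plus strand, Herpud1 at chr8:94386292-94386412 on the plus strand, Chac1 at chr2:119351024-119351081 on the plus strand, and Asns at chr6:7693210-7693257 on the minus strand.
Hspa5: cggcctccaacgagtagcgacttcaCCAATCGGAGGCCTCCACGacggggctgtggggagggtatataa
Hsp90b1: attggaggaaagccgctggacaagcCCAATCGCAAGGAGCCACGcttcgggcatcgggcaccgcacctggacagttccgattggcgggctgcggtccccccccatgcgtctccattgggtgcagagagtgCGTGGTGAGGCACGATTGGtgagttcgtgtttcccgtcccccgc
Creld2: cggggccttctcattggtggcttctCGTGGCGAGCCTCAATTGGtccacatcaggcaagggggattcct
Pdia6: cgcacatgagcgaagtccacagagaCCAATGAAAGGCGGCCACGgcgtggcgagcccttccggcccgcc
Syvn1: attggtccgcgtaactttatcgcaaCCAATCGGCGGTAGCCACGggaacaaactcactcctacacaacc
Herpud1: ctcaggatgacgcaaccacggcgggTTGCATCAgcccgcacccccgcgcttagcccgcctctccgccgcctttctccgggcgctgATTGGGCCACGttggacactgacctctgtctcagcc
Chac1: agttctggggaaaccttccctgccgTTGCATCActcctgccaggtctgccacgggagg
Asns: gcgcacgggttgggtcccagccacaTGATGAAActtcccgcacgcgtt

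The ER stress response element was matched in 9 of 28 members with a promoter (32.1%), namely Hspa5, Hsp90b1, Calr, Canx, Creld2, Dnajc3, Pdia6, Syvn1 and Derl3, and in 37 of 27025 genes in the table (0.137%). ERSE-II was matched in Dnajb11 and Herpud1, 7.14% of the members against 0.0444% of all promoters. CARE letters were matched in Herpud1, Trib3, Chac1 and Asns, 14.3% against 4.51%, and the UPR element in 0 of 28 members against 0.714% of all promoters. A match describes letters in this window and is not a test of binding. The elements were defined on several of these same genes, so the share among the members is not an independent finding.

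Levels were compared between genes only per length, as RPKM, in which reads are scaled to exon length and to the reads of the library. In C57BL/6 Calr, a lectin chaperone of the calnexin cycle, was the highest at 272 RPKM, and its range over the 6 libraries did not overlap that of Hspa5 (BiP, the chief Hsp70 of the ER lumen) at 163. Hspa5, the disulfide isomerase Pdia3 at 144 and the membrane lectin Canx at 129 overlapped with their neighbours in this order, and Hsp90b1 (the ER form of Hsp90) at 82.2 and Pdia4 at 61.9 stood apart from theirs. Atf4 at 52.3, Dnajc3 at 46.1, Xbp1 at 45.4 and Pdia6 at 43.1 followed with overlapping ranges. The sensors were low, with Atf6 at 9.30, Ern1 at 5.54 and Eif2ak3 at 5.42. At the bottom were Asns (asparagine synthetase) at 2.25, Trib3 (a pseudokinase induced by Ddit3) at 1.02 and Derl3 at 0.606. Together the 32 genes took 0.438% to 0.520% of the reads of a library.

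**Figure D1:**
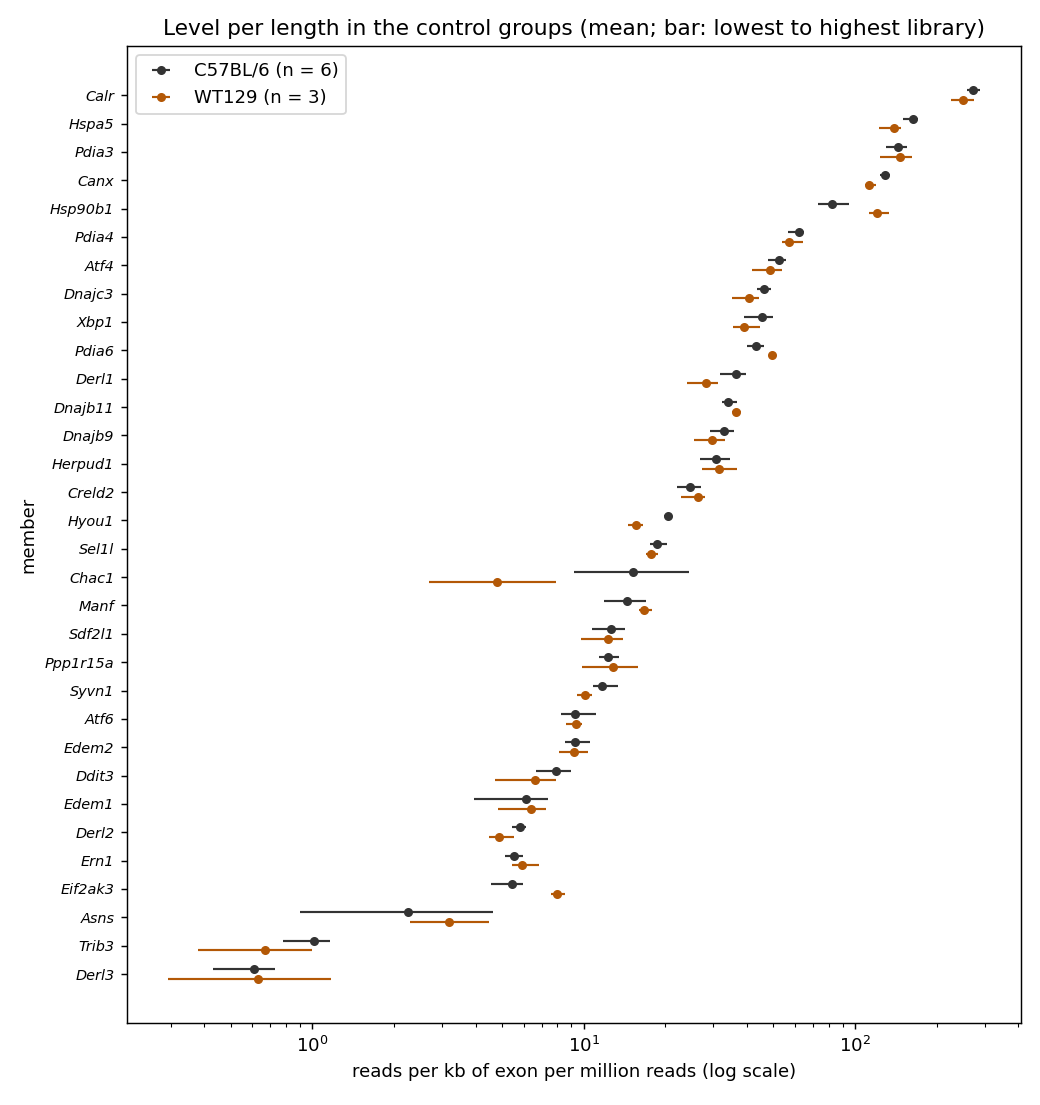
Level of each member in RPKM, reads scaled to exon length and library (horizontal log axis), in C57BL/6 and WT129; points are means and bars run from the lowest to the highest library. Chaperones and disulfide isomerases lie at the top, from 272 for Calr in C57BL/6, and Asns, Trib3 and Derl3 at the bottom; the strains were normalized in separate tables and were not tested against each other.

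The members differed in how much they varied between replicates. The pooled SD of the log2 value within groups was largest for Chac1 at 0.64, Asns at 0.56, Derl3 at 0.49 and Trib3 at 0.42, and it was 0.26 or less for the other 28, below the medians over all genes, 0.28 and 0.29 in the respective tables. Hyou1, an Hsp110 of the ER lumen, varied least, at 0.07. Of the 4 most variable members 3 are targets of the integrated stress response, and the least variable, Hyou1 and Canx, are chaperones. Asns, Trib3 and Derl3 were also the members of lowest RPKM in C57BL/6, and the part of low counts in their spread was not tested. The remaining target, Ppp1r15a, had a pooled SD of 0.24.

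In the libraries labelled Mertk-/-V2Tyro3-/-V2, members of every role had log2 fold changes below 0 against the C57BL/6 libraries with the mark. These were 6 of 8 lumenal chaperones, 2 of 3 co-chaperones, all 3 disulfide isomerases and all 3 sensors. They also included 2 of 3 transcription factors, all 8 degradation genes and 2 of 4 integrated stress response targets. By limma and edgeR none of the members passed the test over all genes. The median log2 fold change of the members was -0.19 against 0.0066 over all genes, and 26 of 32 were below 0 (81.2%, against 49.2% of all genes). With limma 0 of 32 passed an adjusted p of 0.05, where 0.523% of all genes did. At an unadjusted p under 0.05, 11 were lower and 0 higher, where 8.74% of all genes were lower: Hspa5, Hyou1, Sdf2l1, Manf, Creld2, Pdia4, Ern1, Xbp1, Herpud1, Sel1l and Syvn1. Without Mertk-/-V2Tyro3-/-V2 replicate 3 this count was 6 and the median -0.15. edgeR called 0 members (0.614% of all genes), while DESeq2 called 6 as lower (Hspa5, Hyou1, Creld2, Ern1, Xbp1 and Herpud1) where it called 3.61% of all genes as lower.

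In 14 members every Mertk-/-V2Tyro3-/-V2 library lay below the 3 C57BL/6 libraries with the mark, where 12.8% of all genes did so, but against all 6 C57BL/6 libraries this held only for Hyou1 and Syvn1, 2 of 32, where 2.36% of all genes did so. By role, 5 of 8 lumenal chaperones, 1 of 3 disulfide isomerases, 1 of 3 sensors, 1 of 3 transcription factors and 3 of 8 degradation genes were lower at an unadjusted p under 0.05, and 0 of 3 co-chaperones and 0 of 4 integrated stress response targets. The median log2 fold change was -0.32 for the lumenal chaperones, -0.20 for the degradation genes and -0.0029 for the integrated stress response targets.

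Most members were also lower within C57BL/6. In the 3 C57BL/6 libraries without the mark the members had a median log2 fold change of -0.21 against those with it. Of the members 27 of 32 were below 0 (84.4%, against 50.6% of all genes). With limma 0 of 32 passed (0.167% of all genes did), and at an unadjusted p under 0.05, 13 were lower and 0 higher, where 9.98% of all genes were lower. Without C57BL/6 replicate 1, 2, 3, 5 or 6 the count of 13 became 7, 8, 8, 7 or 6, and without replicate 4 it was 17, with 1 higher. edgeR called 0 members (0.203% of all genes) and DESeq2 called Pdia6 and Herpud1 as lower, where it called 1.41% of all genes as lower. In 14 members every unmarked library lay below every marked one (17.9% of all genes), and in Hsp90b1 and Asns every unmarked library lay above (17.3%). Set against the unmarked C57BL/6 libraries in place of the marked ones, the libraries labelled Mertk-/-V2Tyro3-/-V2 had a median of -0.046 (0.0181 over all genes). Below 0 were 17 members, and 15 were above. Limma called 0 members, where it called 129 of 19711 genes. Pdia6 at 0.23 and Derl2 at 0.21 were the 2 members at an unadjusted p under 0.05, as higher. In either direction 2107 of 19711 genes reached that p. The lower level of the members thus depended on which C57BL/6 libraries were the control.

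**Figure D2:**
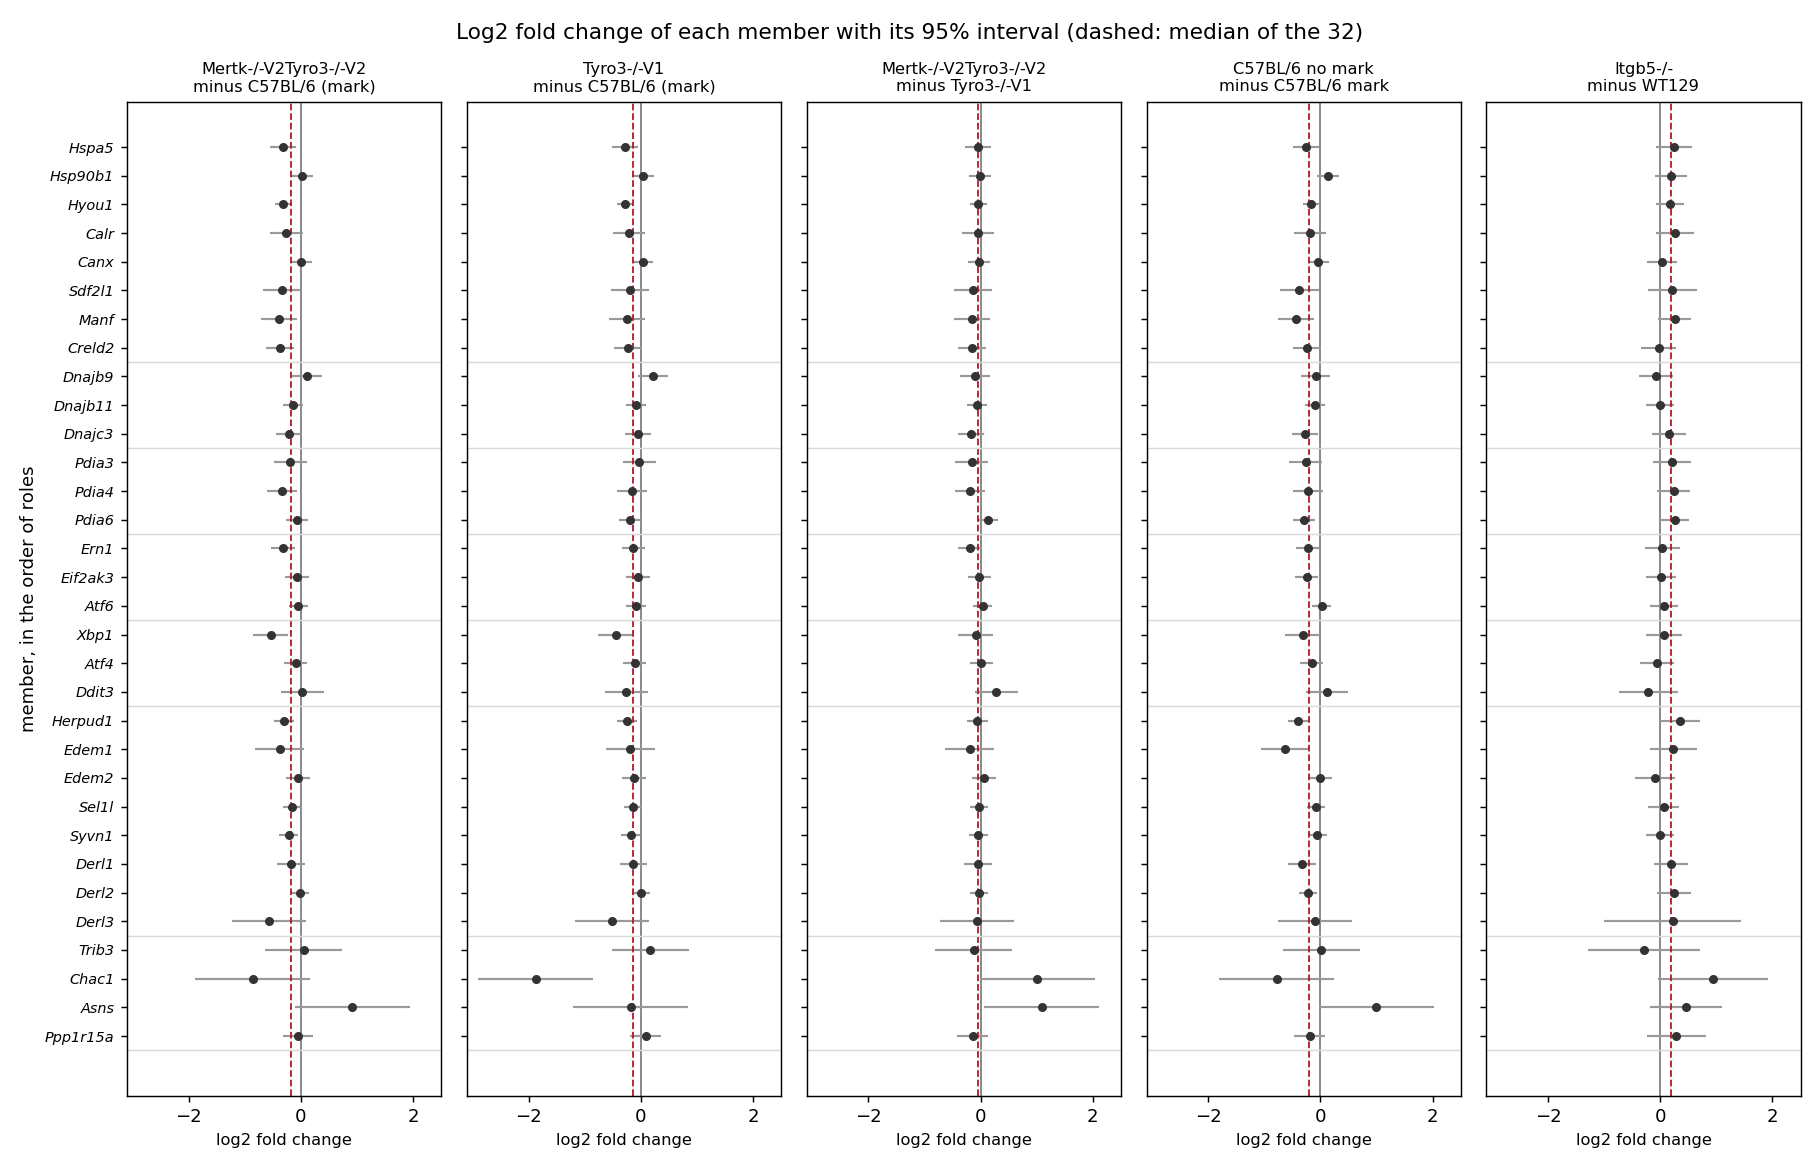
Log2 fold change of each of the 32 members (rows, in the order of roles) with its 95% interval in the 5 comparisons; dashed lines mark the median of the members. The medians lie at -0.19, -0.14, -0.05, -0.21 and 0.18 from left to right, and the comparison of unmarked with marked C57BL/6 libraries is displaced as far as the mutant comparisons.

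Tyro3-/-V1 gave similar values against the same marked C57BL/6 libraries, the controls shared with the comparison above. Its median was -0.14, against -0.0015 over all genes, and 26 of 32 members were below 0 (81.2%, against 50.3% of all genes). With limma 0 of 32 passed (0.0457% of all genes did), and 6 were lower at an unadjusted p under 0.05 and 0 higher, where 2.38% of all genes were lower: Hspa5, Hyou1, Xbp1, Herpud1, Syvn1 and Chac1. edgeR called 0 members (0.0457% of all genes), and DESeq2 called Hyou1 and Chac1 as lower, where it called 0.215% of all genes as lower. In 11 members every library lay below the marked C57BL/6 libraries (5.77% of all genes) and in Dnajb9 every library lay above them (8.28%). Against all 6 C57BL/6 libraries these were Hyou1, Syvn1 and Chac1 below (1.46%) and Dnajb9 above (2.59%). With the unmarked C57BL/6 libraries as the control the median was 0.060 (0.0307 over all genes), with 13 members below 0 and 19 above. Limma called 0 members there, where it called 20 of 19711 genes. An unadjusted p under 0.05 was reached by 6 members. Dnajb9, Edem1, Derl2 and Ppp1r15a were higher, and Chac1 and Asns lower. In either direction 3902 of 19711 genes reached that p.

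Set against each other, the mutant groups were close to each other in most members. The log2 fold change of Mertk-/-V2Tyro3-/-V2 against Tyro3-/-V1 had a median of -0.05. Of the members 25 of 32 were below 0 (78.1%, against 51.3% of all genes). But without Mertk-/-V2Tyro3-/-V2 replicate 3 the median was -0.0051 and 17 members were below 0. With limma 0 of 32 passed (0.137% of all genes did), and Asns was the 1 member at an unadjusted p under 0.05, as higher, where 8.23% of all genes were higher. Without C57BL/6 replicate 2 or 6, or without Tyro3-/-V1 replicate 2, this count was 0, without C57BL/6 replicate 4 it was 2, and without Tyro3-/-V1 replicate 1 it was 3. The count of members lower at that p, 0 with all libraries, was 2 without Mertk-/-V2Tyro3-/-V2 replicate 1 and 1 without its replicate 2. Asns was also the 1 member with every library above Tyro3-/-V1, where 10.9% of all genes were. edgeR called 0 members (0.178% of all genes) and DESeq2 0 (4.26%).

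In Itgb5-/- most members lay above their control. The median log2 fold change against WT129 was 0.18, against 0.04 over all genes, with 25 of 32 above 0. Below 0 were 21.9% of the members, against 44% of all genes. With edgeR or DESeq2 23 members were above 0. With limma 0 of 32 passed (0.0375% of all genes did), and Pdia6 was the 1 member higher at an unadjusted p under 0.05, where 3.31% of all genes were higher, and 0 were lower. Without WT129 replicate 1 that count was 6, without Itgb5-/- replicate 1 it was 3, and without WT129 replicate 3 or Itgb5-/- replicate 2 or 3 it was 0. edgeR called 0 members (0.0268% of all genes) and DESeq2 0 (2.3%). In Hspa5, Calr, Pdia6 and Derl2 every Itgb5-/- library lay above every WT129 library, where 7.67% of all genes did so, and in 0 members every library lay below. Without WT129 replicate 2 the median was 0.07, and without WT129 replicate 3 it was 0.07 with 10 members below 0. The difference between this effect and those in the first table was not tested, since the tables were normalized separately and the controls are other strains.

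**Figure D3:**
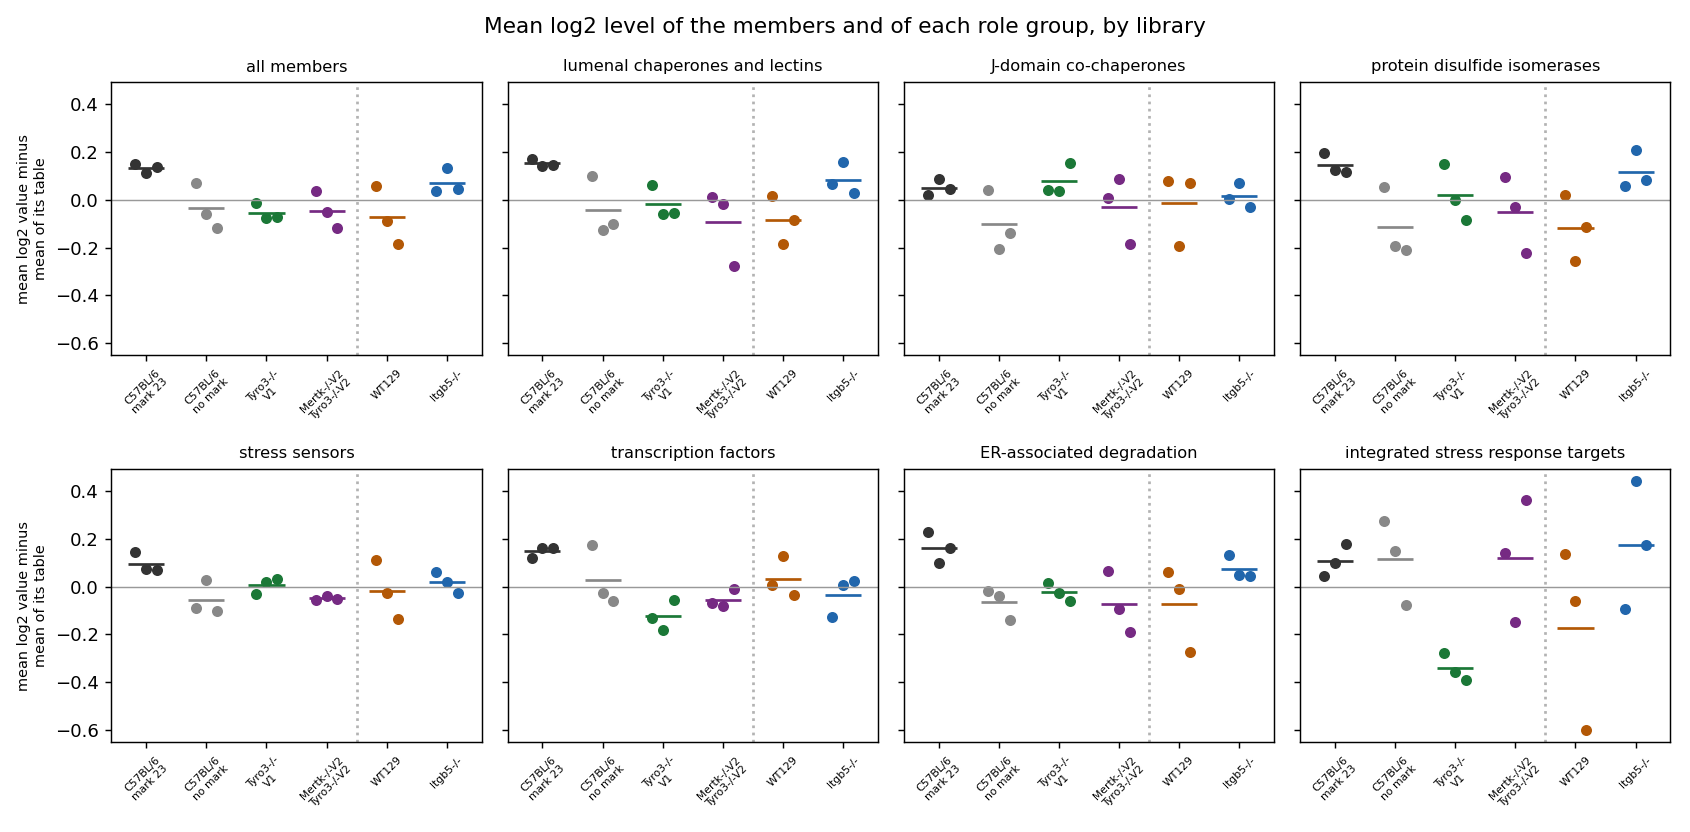
Mean log2 value of all members and of each role group in every library (points), less the mean of its table, with group means as lines; the dotted line divides the separately normalized tables. Over all members the marked C57BL/6 libraries lie at 0.11 to 0.15, above the unmarked ones at -0.12 to 0.07 and above every mutant library of the first table.

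Hspa5, the chaperone that holds the sensors inactive until unfolded proteins draw it away, stood at 20144, 19535 and 19371 normalized counts in the marked C57BL/6 libraries and at 18331, 15442 and 15499 in the unmarked ones. It was at 16329, 16845 and 15586 in Tyro3-/-V1 and at 16802, 16635 and 13806 in Mertk-/-V2Tyro3-/-V2. Every marked library was above every other library of the table, while the unmarked libraries and the mutants overlapped. Mertk-/-V2Tyro3-/-V2 differed from the marked libraries by -0.33 on the log2 scale (SE 0.10, limma adjusted p = 0.14, DESeq2 adjusted p = 0.0269), and -0.06 against the unmarked libraries. In the second table Hspa5 was at 14756, 11663 and 13971 in WT129 and at 15967, 16677 and 15112 in Itgb5-/-, which did not overlap and differed by 0.25 on the log2 scale (SE 0.14, limma adjusted p = 0.676).

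Hyou1 (GRCm38 chr9:44379490-44392369, plus strand), which exchanges the nucleotide of Hspa5, was at 4169, 4048 and 4052 in the marked C57BL/6 libraries, 3867, 3582 and 3491 in the unmarked ones, 3359, 3428 and 3362 in Tyro3-/-V1 and 3416, 3369 and 3103 in Mertk-/-V2Tyro3-/-V2. It was the lumenal chaperone in which both mutant groups lay below all 6 C57BL/6 libraries, by a narrow margin from the lowest of them. On the log2 scale the difference was -0.31 in Mertk-/-V2Tyro3-/-V2 (SE 0.07, limma adjusted p = 0.0759, DESeq2 adjusted p = 5.09e-05). In Tyro3-/-V1 it was -0.27 (limma adjusted p = 0.374, DESeq2 adjusted p = 0.00387). Against the unmarked libraries these became -0.15 and -0.11. In WT129 Hyou1 was at 2803, 2561 and 2377 and in Itgb5-/- at 3012, 2928 and 2795, groups that overlapped at 1 library of each and differed by 0.18 on the log2 scale.

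Creld2, a secreted protein induced by ER stress, was at 910, 957 and 993 normalized counts in the marked C57BL/6 libraries, 899, 718 and 812 in the unmarked ones and 764, 801 and 646 in Mertk-/-V2Tyro3-/-V2. In Tyro3-/-V1 it was at 913, 748 and 794, in WT129 at 899, 702 and 869 and in Itgb5-/- at 768, 840 and 801. All Mertk-/-V2Tyro3-/-V2 libraries were below the marked C57BL/6 libraries and within or below the range of the unmarked ones, a difference from the marked ones of -0.38 on the log2 scale (SE 0.12, limma adjusted p = 0.13, DESeq2 adjusted p = 0.0419) and of -0.14 from the unmarked ones. Manf, a secreted neurotrophic factor of the ER, was at 1449, 1557 and 1594 in the marked C57BL/6 libraries and at 1352, 1046 and 1016 in the unmarked ones, with no overlap and a difference of -0.44 on the log2 scale (limma adjusted p = 0.163). Tyro3-/-V1 at 1482, 1214 and 1196 overlapped with the marked libraries, and Mertk-/-V2Tyro3-/-V2 at 1370, 1178 and 979 lay below them but at 0.045 on the log2 scale against the unmarked ones. In Itgb5-/- it was at 1432, 1754 and 1614 and in WT129 at 1479, 1263 and 1280, overlapping groups that differed by 0.25 on the log2 scale (limma adjusted p = 0.639). The exons of Manf share 146 bases with Dcaf1 on the other strand, and the sources used here do not say whether reads were counted by strand.

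Of the other lumenal chaperones, Calr had log2 fold changes of -0.26 in Mertk-/-V2Tyro3-/-V2 and -0.21 in Tyro3-/-V1. Those of Sdf2l1, a partner of the Hspa5 complex, were -0.34 and -0.20. Against the unmarked libraries Calr was at -0.077 and -0.024 on the log2 scale, and Sdf2l1 turned sign, at 0.034 and 0.18. Hsp90b1 and Canx lay near the marked C57BL/6 libraries: their log2 fold changes were 0.02 and 0.0056 in Mertk-/-V2Tyro3-/-V2, against 0.04 and 0.03 in Tyro3-/-V1, with 95% intervals within -0.19 and 0.24. With the unmarked libraries as the control, Hsp90b1 was at -0.12 and -0.10 on the log2 scale, and Canx at 0.0441 and 0.0695. Hsp90b1 was higher in each unmarked C57BL/6 library (9393, 9198 and 8497) than in any marked one (8497, 8109 and 7989), though the values 8497 of both sides differ by less than 1 count.

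The co-chaperone Dnajb9 (ERdj4, which keeps IRE1 bound to Hspa5) was the 1 member with every Tyro3-/-V1 library above all 6 C57BL/6 libraries, at 2388, 2405 and 3060 normalized counts against 1937 to 2383 in the 6 C57BL/6 libraries with a median of 2200. The margin was narrow, and the difference from the marked libraries, 0.21 on the log2 scale, did not pass (SE 0.12, limma adjusted p = 0.827). Dnajc3 (p58IPK, an inhibitor of PERK) had log2 fold changes of -0.21 in Mertk-/-V2Tyro3-/-V2, -0.05 in Tyro3-/-V1 and -0.27 in the unmarked C57BL/6 libraries, and Dnajb11 of -0.15, -0.08 and -0.09. Among the disulfide isomerases Pdia6 was at 4773, 4551 and 4623 in the marked C57BL/6 libraries and at 4168, 3608 and 3642 in the unmarked ones, groups that did not overlap (log2 fold change -0.29, SE 0.09, limma adjusted p = 0.155, DESeq2 adjusted p = 0.048). In Mertk-/-V2Tyro3-/-V2 it was at 4608, 4256 and 4461, within or below the marked range, and in Tyro3-/-V1 at 4493, 3919 and 3835, below it. Pdia6 was also the isomerase with a gap in the second table, at 4502, 4095 and 4145 in WT129 and 5010, 5415 and 4777 in Itgb5-/- (log2 fold change 0.25, SE 0.11, limma adjusted p = 0.603).

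Among the sensors Ern1 (GRCm38 chr11:106394650-106487852, minus strand) lay farther below the marked C57BL/6 libraries in Mertk-/-V2Tyro3-/-V2 than Eif2ak3 and Atf6 did. Ern1 was at 1378, 1218 and 1242 in the marked C57BL/6 libraries, 1134, 1124 and 1017 in the unmarked ones, 1172, 1153 and 1175 in Tyro3-/-V1 and 1154, 1031 and 905 in Mertk-/-V2Tyro3-/-V2. Every marked library again lay above all others of the table. In Mertk-/-V2Tyro3-/-V2 the difference was -0.32 on the log2 scale (SE 0.09, limma adjusted p = 0.125, DESeq2 adjusted p = 0.0366), and -0.19 against Tyro3-/-V1 (limma adjusted p = 0.401). These became -0.089 against the unmarked libraries and, against Tyro3-/-V1, -0.097 without Mertk-/-V2Tyro3-/-V2 replicate 3. WT129 at 1313, 1008 and 1011 and Itgb5-/- at 1092, 1182 and 1114 overlapped. Eif2ak3 and Atf6 had log2 fold changes of -0.07 and -0.05 in Mertk-/-V2Tyro3-/-V2, of -0.05 and -0.09 in Tyro3-/-V1, and Eif2ak3 of -0.24 in the unmarked C57BL/6 libraries. Against the unmarked libraries Eif2ak3 and Atf6 were at 0.17 and -0.07 in Mertk-/-V2Tyro3-/-V2, and at 0.20 and -0.11 in Tyro3-/-V1. The distance of Ern1 from Atf6 in Mertk-/-V2Tyro3-/-V2 thus depended on the control.

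Xbp1 (GRCm38 chr11:5520659-5525893, plus strand), the target of IRE1 splicing, was at 4512, 4014 and 4320 in the marked C57BL/6 libraries, 4042, 3030 and 3295 in the unmarked ones, 3715, 2852 and 2894 in Tyro3-/-V1 and 3187, 3179 and 2530 in Mertk-/-V2Tyro3-/-V2. Both mutant groups lay below the marked libraries and overlapped with the unmarked ones. Mertk-/-V2Tyro3-/-V2 differed by -0.54 on the log2 scale (SE 0.14, limma adjusted p = 0.102, DESeq2 adjusted p = 0.0182), or by -0.22 from the unmarked libraries. Tyro3-/-V1 differed by -0.45 (SE 0.14, limma adjusted p = 0.539), or by -0.13. In the second table Xbp1 was at 3423, 2682 and 2617 in WT129 and 2842, 3221 and 3030 in Itgb5-/-, the latter within the range of the former. Atf4, made mainly under translational control, had log2 fold changes of -0.10 in both mutant groups and -0.06 in Itgb5-/-. Ddit3 (GRCm38 chr10:127290774-127296288, plus strand) was at 323, 346 and 339 in the marked C57BL/6 libraries, 403, 360 and 333 in the unmarked ones, 218, 284 and 359 in Tyro3-/-V1 and 305, 333 and 394 in Mertk-/-V2Tyro3-/-V2, which all overlapped with at least 1 other group (0.28 between the mutants on the log2 scale, limma adjusted p = 0.478). That difference was 0.0982 without Tyro3-/-V1 replicate 1, 0.46 without Tyro3-/-V1 replicate 3 and 0.18 without Mertk-/-V2Tyro3-/-V2 replicate 3. It was at 190, 303 and 283 in WT129 and 203, 207 and 250 in Itgb5-/-. Its value is uncertain, since a second gene model of the same name, listed at 0, and Mars on the other strand share exonic bases with it.

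Herpud1, a membrane protein of the degradation complex, was at 2148, 2216 and 2088 in the marked C57BL/6 libraries, 1745, 1608 and 1527 in the unmarked ones, 1969, 1783 and 1684 in Tyro3-/-V1 and 1846, 1700 and 1674 in Mertk-/-V2Tyro3-/-V2. All 3 of these groups lay below the marked libraries, and the unmarked C57BL/6 libraries included the lowest values of the table. Differences from the marked libraries on the log2 scale were -0.31 in Mertk-/-V2Tyro3-/-V2 (SE 0.08, limma adjusted p = 0.102, DESeq2 adjusted p = 0.0135), -0.25 in Tyro3-/-V1 (limma adjusted p = 0.569) and -0.40 in the unmarked libraries (limma adjusted p = 0.102, DESeq2 adjusted p = 0.00223). Against the unmarked libraries the sign turned, to 0.10 and 0.15. In Itgb5-/- it was at 1928, 2146 and 2369 and in WT129 at 2019, 1608 and 1448, with overlap (log2 fold change 0.35, SE 0.15, limma adjusted p = 0.604).

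Syvn1 (HRD1, the ubiquitin ligase of the complex) lay below all 6 C57BL/6 libraries in both mutants, at 1301, 1337 and 1337 in Tyro3-/-V1 and 1346, 1328 and 1198 in Mertk-/-V2Tyro3-/-V2, against 1376 to 1576 in C57BL/6 with a median of 1464. The margin was small, with log2 fold changes of -0.18 and -0.22 (limma adjusted p = 0.725 and 0.161), and its exons share 91 bases with Mrpl49 on the other strand. Its partner Sel1l had log2 fold changes of -0.13 and -0.17. Edem1, which marks glycoproteins for degradation, had its lowest log2 fold change within C57BL/6 (-0.63 without the mark, SE 0.20, limma adjusted p = 0.159), against -0.38 in Mertk-/-V2Tyro3-/-V2. Edem2 lay at -0.05, and the derlins of the retrotranslocation channel at -0.18 (Derl1), -0.02 (Derl2) and -0.57 (Derl3).

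**Figure D4:**
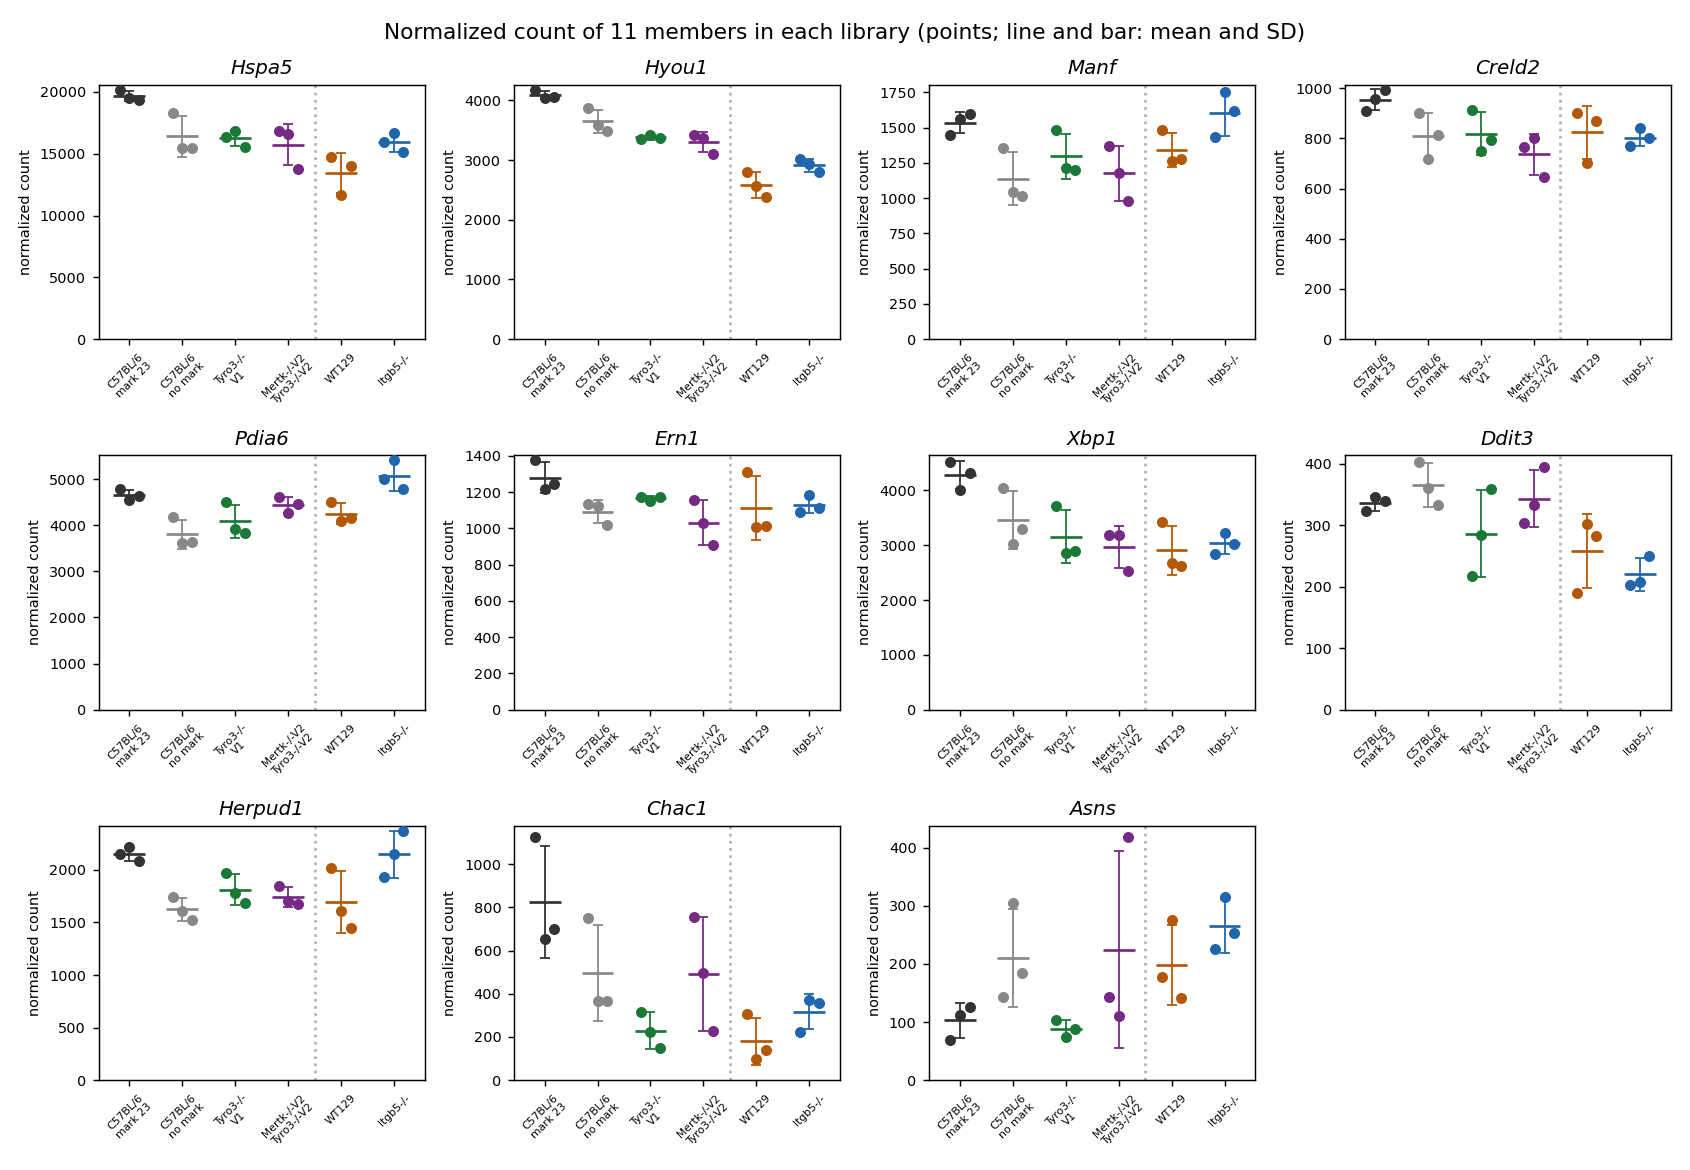
Normalized count of 11 members in each library (points), with the mean (line) and SD (bar) of each group; the dotted line divides the separately normalized tables. Within the first table the marked C57BL/6 libraries stand highest in Hspa5 and Ern1 and the unmarked ones overlap with the mutants. There Chac1 has its lowest mean in Tyro3-/-V1, which overlaps with Mertk-/-V2Tyro3-/-V2, and Asns is spread widely.

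The targets of the integrated stress response differed from the chaperones and from each other in their values. Chac1, which breaks down glutathione, was at 1125, 654 and 700 in the marked C57BL/6 libraries, 753, 367 and 366 in the unmarked ones, 317, 222 and 148 in Tyro3-/-V1 and 755, 497 and 227 in Mertk-/-V2Tyro3-/-V2. Tyro3-/-V1 lay below all 6 C57BL/6 libraries, while Mertk-/-V2Tyro3-/-V2 overlapped with C57BL/6 and with Tyro3-/-V1. On the log2 scale Tyro3-/-V1 differed from the marked libraries by -1.87 (SE 0.46, limma adjusted p = 0.374, edgeR adjusted p = 0.394, DESeq2 adjusted p = 0.0147) and from the unmarked ones by -1.09. Between the mutants it was 1.01 (SE 0.46, limma adjusted p = 0.367), or 0.62 without Mertk-/-V2Tyro3-/-V2 replicate 1. Chac1 lies on chromosome 2, 0.443 Mb from Tyro3, the gene altered in Tyro3-/-V1, and 9.345 Mb from Mertk. Pdia3 lies there too, 1.596 Mb from Tyro3 and 7.26 Mb from Mertk. By its label, Mertk-/-V2Tyro3-/-V2 is altered in both genes. The part of linked sequence in the levels of these members was not tested.

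In the second table Chac1 was at 305, 98.9 and 138 in WT129 and 225, 371 and 355 in Itgb5-/-, with overlap (log2 fold change 0.94, SE 0.42, limma adjusted p = 0.615, or 0.59 without WT129 replicate 2). Asns was at 104, 74.0 and 87.6 in Tyro3-/-V1 and 142, 111 and 419 in Mertk-/-V2Tyro3-/-V2, with replicate 3 far above the other libraries of its group. These groups did not overlap and differed by 1.09 on the log2 scale (SE 0.46, limma adjusted p = 0.346), or 0.51 without that replicate. In C57BL/6 Asns was at 69.0, 113 and 126 with the mark and 143, 304 and 184 without it, so the libraries without the mark were the higher ones, unlike most chaperones. In WT129 it was at 178, 276 and 142 and in Itgb5-/- at 226, 316 and 253, with overlap. Trib3 had log2 fold changes of 0.05, 0.17 and -0.29 in Mertk-/-V2Tyro3-/-V2, Tyro3-/-V1 and Itgb5-/-, and Ppp1r15a (GADD34, which restores translation) of -0.05, 0.09 and 0.29.

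Of the 9 members with a match to the ER stress response element, 7 were below 0 in Mertk-/-V2Tyro3-/-V2, with a median log2 fold change of -0.22. Of the 19 whose promoter was searched without a match, 15 were below 0, with a median of -0.15. In the unmarked C57BL/6 libraries the medians were -0.18 with a match and -0.23 without, and in Itgb5-/- 0.19 and 0.07. The sequences of Hspa5 and Hsp90b1 printed above both hold the element, and their log2 fold changes in Mertk-/-V2Tyro3-/-V2 were -0.33 and 0.02. Against the unmarked C57BL/6 libraries these became -0.06 and -0.12.

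The wider pathway was read from lists of 112 genes of folding, glycoprotein quality control, degradation, translocation, signalling and the integrated stress response that are not among the 32, of which the tables allowed tests of 110 and 111. With limma 0 passed in any of the 5 comparisons. At an unadjusted p under 0.05, 7 were higher and 19 lower in Mertk-/-V2Tyro3-/-V2, where 13.2% and 8.74% of all genes were. In Tyro3-/-V1 1 was higher and 2 lower (4.32% and 2.38% of all genes), and between the mutants 6 were higher and 7 lower (8.23% and 5.55%). In the unmarked C57BL/6 libraries 3 were higher and 40 lower (14% and 9.98%), and in Itgb5-/- 2 were higher and 2 lower (3.31% and 4.96%). The medians were -0.10, -0.07, -0.08, -0.20 and 0.08 in that order, with the largest shift again between the C57BL/6 libraries. edgeR called 1 gene of these lists in Mertk-/-V2Tyro3-/-V2, where it called 0.614% of all genes, and none in the other comparisons. That gene was Slc7a1, a transporter of cationic amino acids (log2 fold change -0.62, SE 0.12, limma adjusted p = 0.0531, edgeR adjusted p = 0.0475, DESeq2 adjusted p = 0.000552). In the order of these medians, DESeq2 called 13, 0, 3, 12 and 0, where it called 10.4%, 0.721%, 4.26%, 4.81% and 2.3% of all genes in either direction. Fkbp14, a prolyl isomerase of the ER, had a log2 fold change of 0.60 in Mertk-/-V2Tyro3-/-V2 (limma adjusted p = 0.0686, DESeq2 adjusted p = 0.00215).

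The other genes named from these lists are the 2 of smallest p in each remaining comparison, and with limma none of them passed. DESeq2 called Slc7a11 and Slc7a5 between the mutants (DESeq2 adjusted p = 0.0135 and 0.0197). It also called Psat1 and Slc7a5 between the C57BL/6 sets (DESeq2 adjusted p = 0.00575 and 0.00518), and none of those named for Tyro3-/-V1 or Itgb5-/-. Slc7a5, a subunit of a transporter of large neutral amino acids, had log2 fold changes of -0.30 in Tyro3-/-V1 and -0.64 in the unmarked C57BL/6 libraries (limma adjusted p = 0.736 and 0.102), and 0.54 between the mutants (limma adjusted p = 0.169). Slc7a11, the cystine transporter, had 0.88 between the mutants (limma adjusted p = 0.16), and Psat1 of serine synthesis -0.54 in the unmarked libraries (limma adjusted p = 0.102). The kinase Eif2ak4 (GCN2) had 0.37 in Tyro3-/-V1 (limma adjusted p = 0.583). In Itgb5-/- the lowest p belonged to Stt3b, a subunit of the oligosaccharyltransferase, at 0.31, and to the disulfide isomerase Pdia5 at -0.62 (limma adjusted p = 0.521 and 0.541).

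Markers of other cells differed between the same libraries. In the unmarked C57BL/6 libraries the 12 rod markers summed to 0.540% to 1.51% of reads against 0.132% to 0.475% in the marked ones. They had a median log2 fold change of 1.71, with 11 of 12 higher at an unadjusted p under 0.05. None was at 0 in all libraries of the table. Markers of ocular surface epithelium, also with none at 0 throughout the table, summed to 0.429% to 1.06% against 1.09% to 1.63% (median -1.20). RPE markers summed to 2.87% to 3.35% against 3.11% to 3.89% (median -0.28). In Mertk-/-V2Tyro3-/-V2 the rod list had a median of 0.80 (0.374% to 1.10% of reads) and the ocular surface list -1.25 (0.296% to 1.35%). The RPE list had a median of -0.44, with sums of 2.16% to 3.22% against 3.11% to 3.89%. Of its 16 markers 10 were below 0 and 6 above. At an unadjusted p under 0.05, 9 were lower and 1 higher, where 8.74% and 13.2% of all genes were. Of the RPE markers Rpe65, the isomerase of the visual cycle, was called by limma there (log2 fold change -1.53, adjusted p = 0.0268), while 0 rod markers reached an unadjusted p under 0.05. Of 14 markers of microglia and macrophages 7 were higher and 1 lower at that p (median 0.57). C1qc and Ctss were called at 0.93 and 0.78 (limma adjusted p = 0.0459 and 0.0352). The list nevertheless summed to 0.0358% to 0.0458% of reads against 0.0396% to 0.0483%. Markers of endothelium and of fibroblasts and mural cells, 10 each, had medians of 0.72 and 0.53, and those of inner retina one of 0.86. The 9 markers of striated muscle measured had medians of -1.63 there and -1.91 in the unmarked C57BL/6 libraries.

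In Tyro3-/-V1 the rod and ocular surface medians were 0.41 and -0.69, with 0 markers of either list at an unadjusted p under 0.05. All 10 endothelial markers were above 0 in log2 fold change there, 8 of them at that p, with a median of 0.87 and sums of 0.0169% to 0.0377% of reads against 0.0113% to 0.0186% in the marked C57BL/6 libraries. Markers of fibroblasts and mural cells summed to 0.202% to 0.240% against 0.110% to 0.152%, without overlap, with a median of 0.58 and 6 of 10 higher at that p. Of these Lum, a proteoglycan of connective tissue, was called (1.23 on the log2 scale, limma adjusted p = 0.0358). None of the markers in the lists named here for Tyro3-/-V1 was at 0 in all libraries of the table. Lens markers, none at 0 throughout the first table, had a median of 1.60 in Mertk-/-V2Tyro3-/-V2, where they reached 3.42% of the reads of replicate 3.

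In the second table the rod list summed to 0.277% to 0.559% of reads in Itgb5-/- and to 0.827% to 2.05% in WT129, with a median of -1.52 and 12 of 12 lower at an unadjusted p under 0.05. Lens markers, among which Lim2 was at 0 in both groups, reached 3.47% of the reads of Itgb5-/- replicate 2. The 10 markers of striated muscle, none at 0 throughout the table, had a median of 1.33 in Itgb5-/-. At an unadjusted p under 0.05, 9 of 10 were higher. Of secretory gland markers, Lcn11, Obp1a and Prol1 were at 0 in every library. As a share of reads, the 32 members took 0.490% to 0.497% in the marked C57BL/6 libraries, 0.469% to 0.503% in the unmarked ones, 0.460% to 0.483% in Tyro3-/-V1 and 0.443% to 0.499% in Mertk-/-V2Tyro3-/-V2, ranges that overlapped except for Tyro3-/-V1 with the marked libraries. They took 0.438% to 0.486% in WT129 and 0.501% to 0.520% in Itgb5-/-, which did not overlap. The part of these other cells in the levels of the members was not tested.

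**Figure D5:**
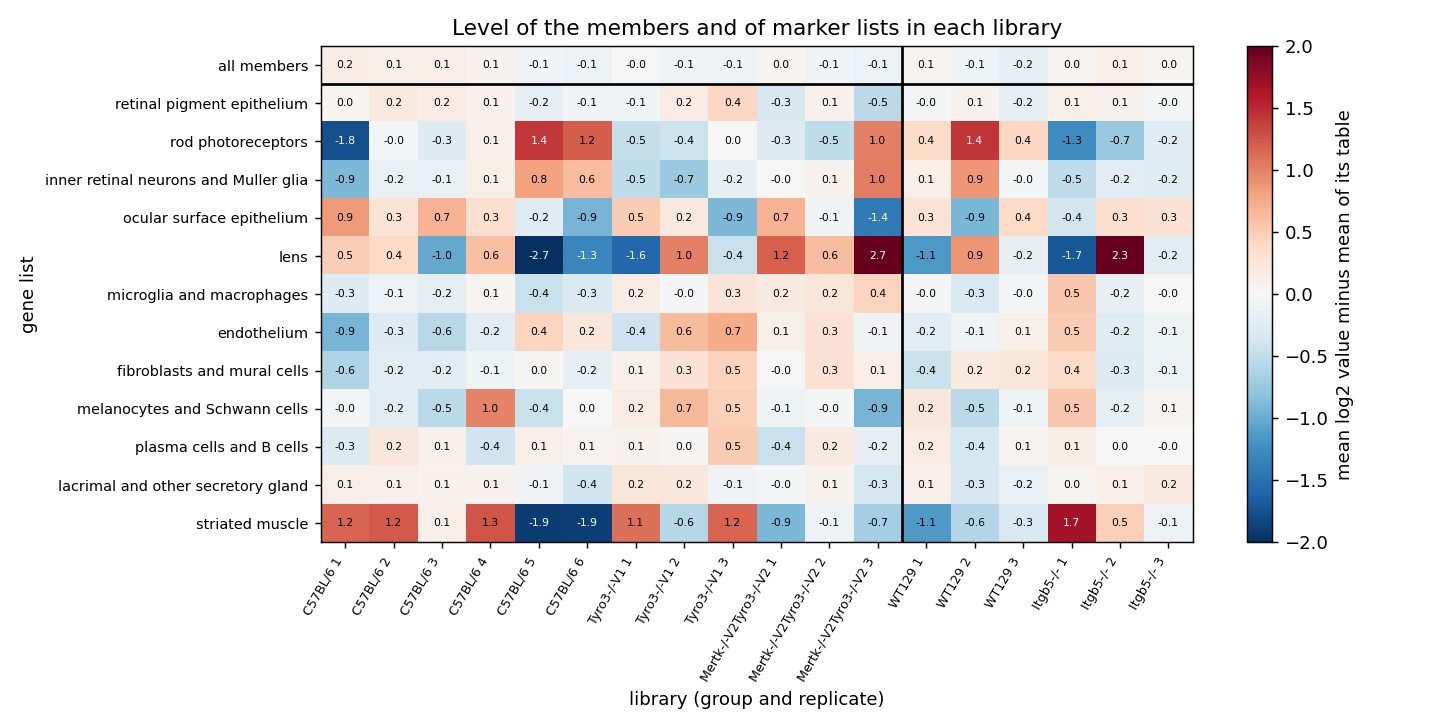
Mean log2 value of the 32 members (top row) and of 12 marker lists in each of the 18 libraries, less the mean of its table; red is above and blue below that mean, and the vertical line divides the tables. The members vary within -0.18 and 0.15, rod markers within -1.76 and 1.44, and lens markers reach 2.68 in Mertk-/-V2Tyro3-/-V2 replicate 3.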

How the data were processed

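RNA sequencing of RPE gave 18 libraries in 5 groups, assigned from the sample titles. Per the labels and headers, the authors deposited normalized counts, a signal for each gene; STAR, DESeq2 and the builds GRCm38 and mm10 are named, without versions, in the submitters' processing notes. Dividing each library by its smallest step gave whole reads for 100% of values within 0.001 read (in proportion for high values), so edgeR 4.0.16 and DESeq2 1.42.0 could be run on recovered counts.

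Normalized counts, after adding 1, were taken to log2 and fitted by limma 3.58.1 (R 4.3.3) with trend and robust shrinkage. Genes at 10 or more in at least 3 libraries were kept. The first table had terms for group and for the mark 23 (8 residual degrees of freedom), and the second a term for group (4). Tests were two-sided, with Benjamini-Hochberg adjustment over all genes kept and a threshold of 0.05. Means are given with SD. The steps were checked on simulated data. Rows without a name were left out of the first table (at most 0.0203% of a library). In the second, 3096 rows lacked a name, of which 3061 took one by their Ensembl identifier. Gene positions and exon lengths are from GENCODE M21 (GRCm38) and promoters from RefSeq (GRCm38.p6).

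Members given by library are those called by limma, edgeR or DESeq2 in any comparison and the 4 of smallest limma p in the comparisons between mutants or with a control group. Of the wider pathway, genes called by limma or else the 2 of smallest p in each comparison are named. The members, the lists and these rules were chosen with earlier results of these data known. A few other members and markers are given to describe their role group and were chosen after their values were seen. Replicate numbers were not taken as pairs, since the labels do not call them so. In the first table, deviations of marked libraries with the same number correlated at 0.28 to 0.56 for replicates 1 and 3. For replicate 2 the range was -0.21 to 0.06, and those of replicate 1 with replicate 3 correlated at -0.69 to -0.30. Same-number libraries of the second table correlated at -0.12 to 0.03. A factor shared by replicates of the same number was not tested. No replicates were duplicates. Alternatives were pseudocounts, filters, scalings, terms for the mark, a block for replicate number, the other tools and each library left out.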

Additional observations from a re-analysis of the deposited data

How the results depend on the processing

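With limma, 0 members were called in any of the 5 comparisons under every alternative but the replicate block. That block called 1 in Mertk-/-V2Tyro3-/-V2 (Xbp1, limma adjusted p = 0.0463). The labels do not say that replicate numbers pair libraries, and libraries of the same number correlated for some numbers only. DESeq2 called 6 members in Mertk-/-V2Tyro3-/-V2, 2 in Tyro3-/-V1 and 2 between the C57BL/6 sets, and edgeR 0. The cause was not tested.

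The median log2 fold change of the members in Mertk-/-V2Tyro3-/-V2 was -0.067 with quantile normalization, -0.070 with no term for the mark and -0.046 with the unmarked C57BL/6 libraries as the control, an alternative chosen after seeing the data. In Tyro3-/-V1 it was -0.037 with no term for the mark and 0.060 with the unmarked control. Between the C57BL/6 sets it was -0.11 with quantile normalization. The unmarked control also turned Herpud1 to 0.0981 in Mertk-/-V2Tyro3-/-V2 and 0.155 in Tyro3-/-V1.

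With each library left out in turn the calls were 0 throughout, and the medians ran from -0.24 to -0.15 in Mertk-/-V2Tyro3-/-V2, from -0.18 to -0.11 in Tyro3-/-V1, from -0.089 to -0.0051 between the mutants, from -0.26 to -0.16 between the C57BL/6 sets and from 0.073 to 0.22 in Itgb5-/-. No paired fit was possible between the C57BL/6 sets because their numbers differ. Quantile normalization lowered the share of members below 0 between the C57BL/6 sets from 84.4% to 65.6% and between the mutants from 78.1% to 59.4%. No scaling moved the median of all genes by over 0.1. Over all genes, the 103 calls of limma in Mertk-/-V2Tyro3-/-V2 ranged from 0 to 142 with 1 library left out. The precision is limited by 3 libraries in each group: Hyou1, the least variable member, had a 95% interval of -0.46 to -0.16 in Mertk-/-V2Tyro3-/-V2.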
